A study of Mus musculus with 6 samples.

Results

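Potassium channel genes were examined as a family in hearts from mice aged 9 months, which either lacked 1 working copy of the receptor kinase GRK2 or were wild-type littermates. The family was taken as every gene whose symbol starts with Kcn, and 84 of 18193 named genes met that rule, through 167 probe sets. Of these, 81 encode channel subunits and 3 are non-coding transcripts. Where a gene had several probe sets, the one with the highest mean over the 6 arrays stood for it and the others served as a check. The GRK2+/- group held 3 hearts of the strain B6.129-Adrbk1tm1Mca/J, which had been crossed back onto C57BL/6J for more than 20 generations, and the wild-type group held 3 hearts of C57BL/6J mice. The allele is present in all cells of the animal, and the labels used here name no sex and no drug given other than the anaesthetic isoflurane. All 6 hearts were stopped with cold intracardiac KCl, and RNA came from the upper part of each heart, 1 Affymetrix array per heart. No probe set was annotated to Grk2, so the level of the targeted gene could not serve as a check of the labels.

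Potassium channels let potassium leave the cardiomyocyte and so end the action potential and hold the resting potential. In the mouse ventricle the early phase of repolarisation is carried by a fast transient outward current through Kv4 pore subunits, and later phases by slower currents, Kv1 ones among them. Inward rectifiers set the resting potential, and one of them, made of Kcnj3 and Kcnj5 subunits, is opened by G protein beta-gamma subunits when muscarinic or adenosine receptors are active. GRK2 phosphorylates active G protein-coupled receptors, beta-adrenergic ones among them, and so ends their signalling.

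Values are log2 probe set brightness after RMA, and each difference is GRK2+/- minus wild type with limma's standard error (SE, n = 3 hearts per group). Array medians lay between 6.25 and 6.31, correlations between arrays were 0.99358 or higher, and precision is limited by how few arrays there are. As a sign of RNA quality, the control probes at the 3′ end of beta-actin exceeded those at its 5′ end by 0.98 ± 0.08 (SD, n = 3) in GRK2+/- and by 0.78 ± 0.04 (SD, n = 3) in wild-type hearts. The same measure shifted between groups by 0.0245 for Gapdh, 0.0205 for pyruvate carboxylase and -0.095 for the transferrin receptor. Genes of contraction were as bright as a heart sample should show, with Myh6 at 14.88 and 14.83 and the ventricular light chain Myl2 at 15.07 and 15.09 in GRK2+/- and wild-type hearts.

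No potassium channel gene met the adjusted threshold. With limma and Benjamini-Hochberg adjustment, 0 of 84 members and 0 of all 18193 genes had an adjusted p under 0.05, and the smallest adjusted p among the members was 0.103, for Kcnk2. At an unadjusted p under 0.05, 6 members were higher and 6 lower in GRK2+/- hearts, or 14.3% of the family against 14% of all genes. After quantile normalisation the split was 7 higher and 4 lower, with Kcnk10 added and Kcnab3 and Kcnh7 lost. In the higher direction the background was 6.3% of all genes and in the lower direction 7.7%. A gene is named below as called when it met this unadjusted threshold. The family's share of calls was therefore near that of any gene on the array.

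The members called higher were the leak channel Kcnk2, the Kv4 subunits Kcnd3 and Kcnd2, the G protein-gated rectifiers Kcnj3 and Kcnj5, and the leak channel Kcnk3. Those called lower were Kcna5, Kcnma1, Kcne4, Kcnh7, Kcnh1 and Kcnab3. The median difference over the 84 genes was -0.026 and over all genes -0.019, and both kept a negative sign after centring of the arrays (-0.018 and -0.011) and after quantile normalisation (-0.0082 and -0.0056). In the members, 52 differences lay below 0 and 32 above, and 56.5% of all genes lay below 0. The groups did not overlap for 19 of 84 members, or 22.6%, 7 higher and 12 lower, against 19.1% of all genes (7.44% higher and 11.6% lower).

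**Figure D1:**
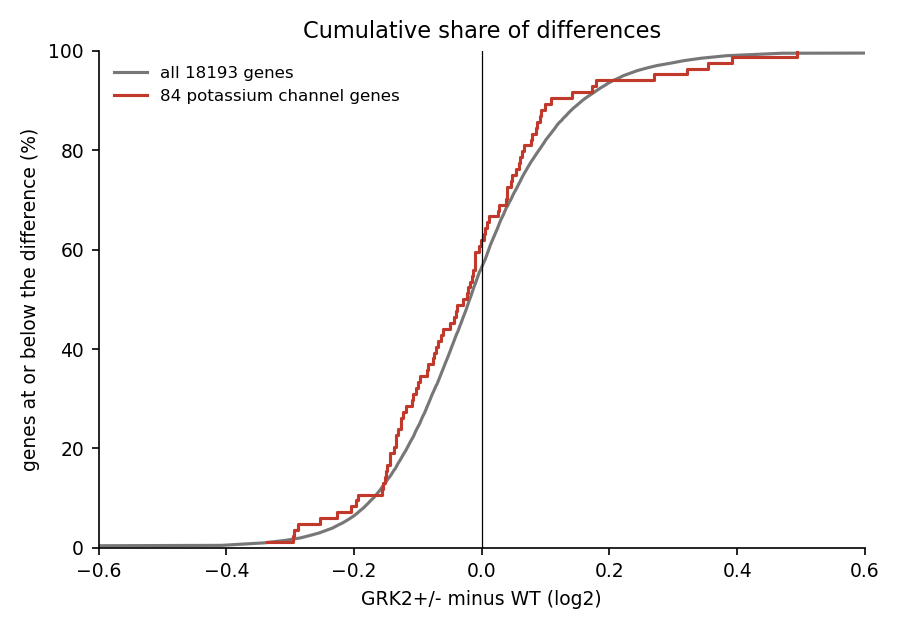
Cumulative share of genes (vertical axis, percent) at or below a given GRK2+/- minus wild-type difference (horizontal axis, log2), for 84 potassium channel genes and all 18193 genes. The channel curve runs close to that of all genes, with medians of -0.026 and -0.019.

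The calls were spread unevenly over levels. Of the 84 members, 61 were dimmer than the median of the gene table (7.24), and 4 of them were called, against 11.9% of all genes at such levels. Among the 23 brighter members, 8 were called, 5 higher and 3 lower, or 34.8%, against 16.1% of all genes at or above the median level. The brighter members had a median difference of 0.027 and the dimmer ones of -0.06, and over all genes the medians at these levels were 0.0084 and -0.043. This split is a description and was not tested.

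**Figure D2:**
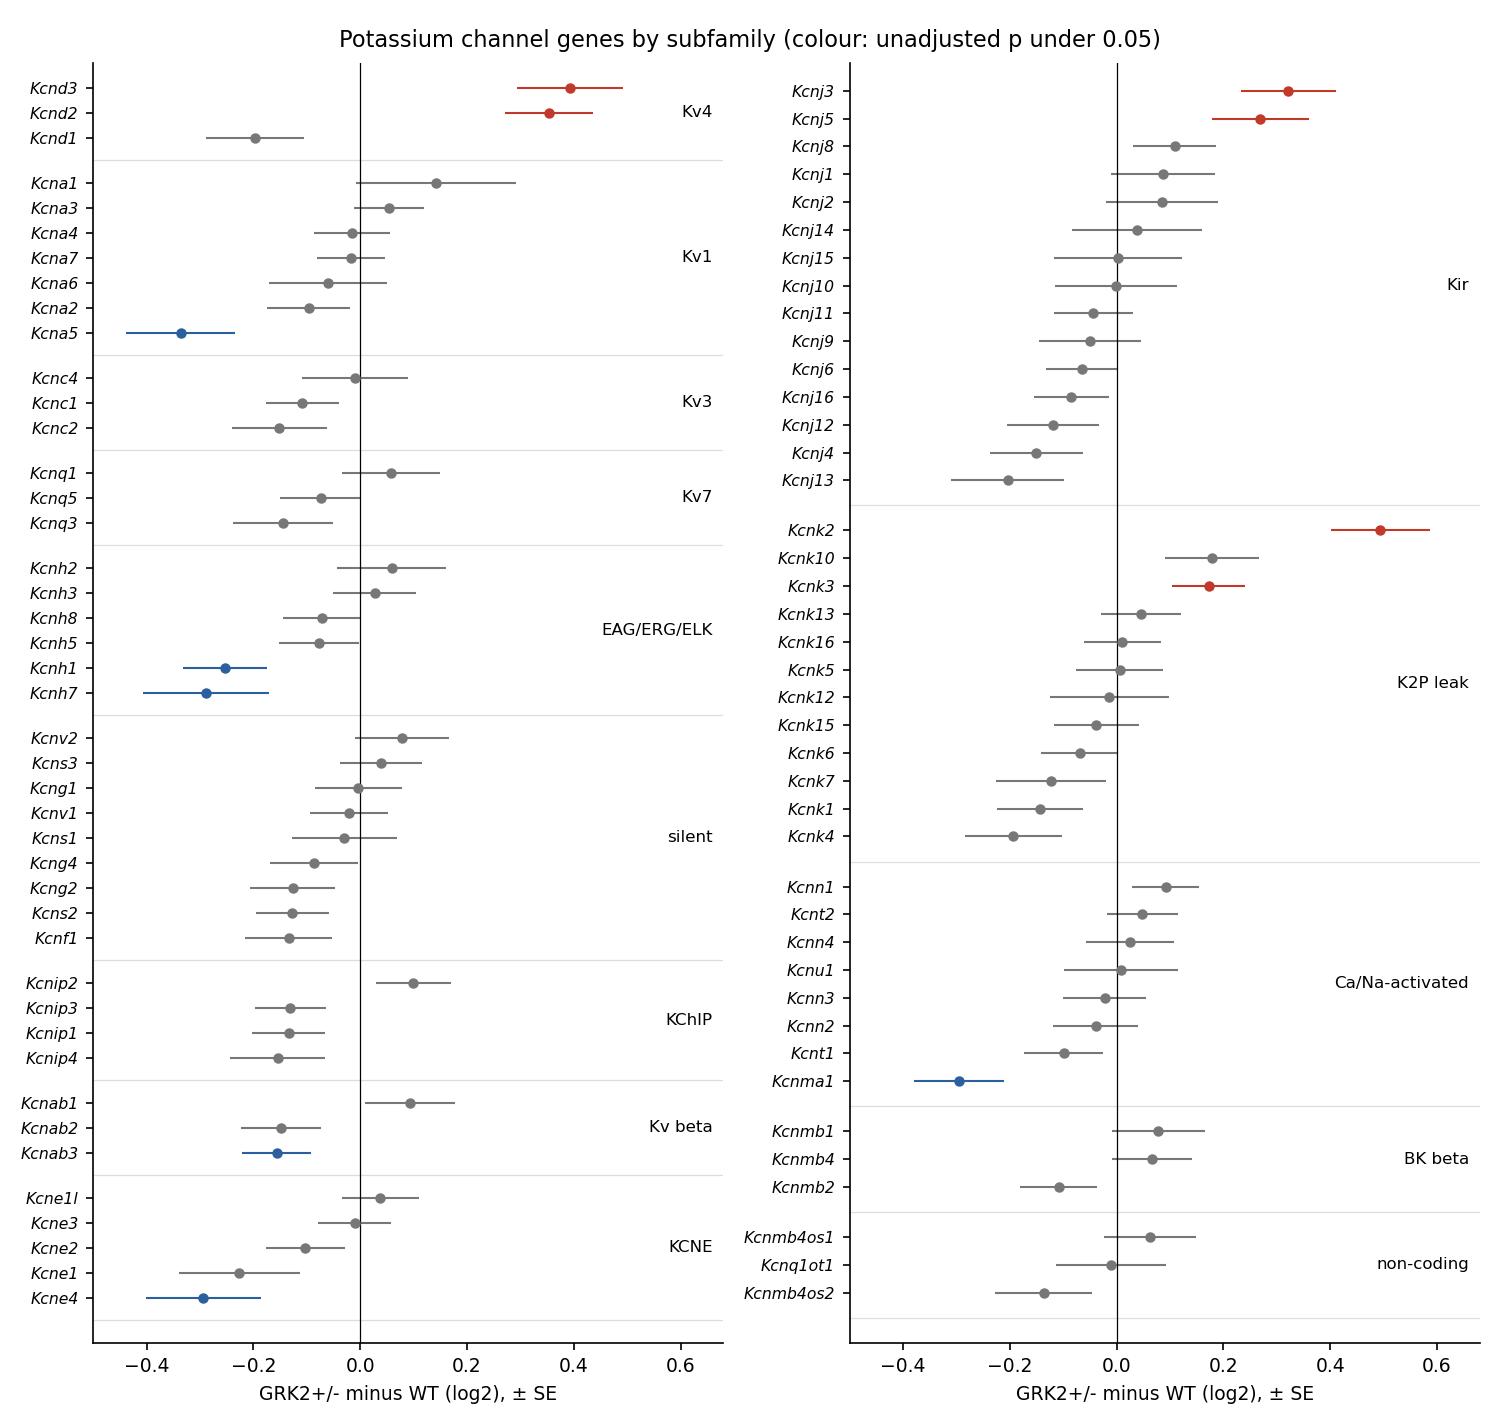
GRK2+/- minus wild-type difference (log2, horizontal axis) with its standard error for each of the 84 genes, grouped by subfamily. Red and blue points are the 6 higher and 6 lower members at an unadjusted p under 0.05, and grey points are the 72 others.

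The Kv4 subfamily, the pore subunits of the fast transient outward current, held a pair of genes called higher. Kcnd2 (Kv4.2) read 9.32, 9.35 and 9.48 in the GRK2+/- hearts and 9.16, 8.93 and 9.00 in the wild-type hearts. Every GRK2+/- heart lay above every wild-type heart, with a difference of 0.35 ± 0.08, or 1.28-fold (limma, adjusted p = 0.15). Kcnd3 (Kv4.3) read 8.30, 8.54 and 8.47 against 8.22, 8.03 and 7.89, again without overlap, with GRK2+/- heart 1 closest to the wild-type range. Its difference was 0.39 ± 0.10, or 1.31-fold (limma, adjusted p = 0.177). Both calls held when any 1 heart was left out, with Kcnd2 between 0.30 and 0.42 and Kcnd3 between 0.31 and 0.48.

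The other probe sets of the Kv4 genes did not all follow. For Kcnd2, 3 of 4 probe sets pointed higher, at 0.35 ± 0.08, 0.29 ± 0.09 and 0.26 ± 0.10, each without overlap between groups. The remaining one, at the dim end of the scale (4.47 and 4.73), was called lower at -0.26 ± 0.10, with overlap. For Kcnd3 only the brightest probe set pointed higher, and the other 3, with group means between 4.22 and 5.88, differed by -0.082 to -0.039. When probe sets were averaged within genes, Kcnd2 was 0.16 and remained called, while Kcnd3 was 0.049 and was not. Kcnd1, the remaining Kv4 gene, which was named after its values were seen, differed by -0.20 ± 0.09 and was not called. Of its other probe sets, one was called lower without overlap, at -0.22 ± 0.07, and the last differed by 0.04 ± 0.07.

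Kcnip2 encodes the calcium-binding subunit that Kv4 channels need to reach the surface of cardiomyocytes. It read 10.75, 10.81 and 10.85 in GRK2+/- and 10.63, 10.75 and 10.73 in wild-type hearts, with overlapping groups, and it differed by 0.10 ± 0.07 without a call. Its other 2 probe sets differed by -0.11 ± 0.07 and -0.14 ± 0.07, the latter without overlap, and their average with the first gave -0.052. None of the 4 Kv channel-interacting proteins was called, and the differences of the family ran from -0.15 to 0.10. Of the 3 Kv beta subunits, cytosolic partners of Kv1 channels, Kcnab3 was called lower at -0.16 ± 0.06 (6.41, 6.45 and 6.47 against 6.57, 6.63 and 6.60). The spread of Kcnab3 within groups was small (SD of 0.03 and 0.03, n = 3 each). Its call ended when any heart other than wild-type heart 1 was left out. Kcnab1 and Kcnab2 differed by 0.09 ± 0.08 and -0.15 ± 0.07 without a call.

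Among 7 Kv1 genes, Kcna5 was the 1 that was called, or 14.3%, beside 14% of all genes. It encodes Kv1.5, which carries a slowly inactivating delayed rectifier current in mouse ventricle and atrium. Kcna5 read 9.80, 9.43 and 9.59 in the GRK2+/- hearts and 9.96, 10.04 and 9.82 in the wild-type hearts. GRK2+/- heart 1 and wild-type heart 3 were nearly level, and the groups did not overlap. The difference was -0.34 ± 0.10, a level 1.26-fold lower (limma, adjusted p = 0.227), and it ranged from -0.43 to -0.25 with 1 heart left out, with the call kept each time. This gene has 1 probe set here, so no other probe set checks it.

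The remaining Kv1 genes differed by -0.10 to 0.14 without a call. Kcna1, Kcna2 and Kcna6, each with several probe sets, were named after their values were seen. All 4 probe sets of Kcna1 lay above 0, and the one at 0.51 ± 0.21 was called higher, with overlap. Kcna1 was also called higher with its most variable probe set and without GRK2+/- heart 2. A dim probe set of Kcna6 (-0.23 ± 0.08) and one of Kcna2 (-0.19 ± 0.08) were called lower without overlap. Of the 4 probe sets of Kcna2, 2 lay above 0. Kcna4 (Kv1.4), the subunit of the slow transient outward current, was dim at 5.01 ± 0.09 and 5.02 ± 0.02 (SD, n = 3 each) and differed by -0.02 ± 0.07. Kcna7, which is expressed in heart and skeletal muscle, was brighter, at 8.54 ± 0.03 and 8.56 ± 0.02 (SD, n = 3 each), and differed by -0.02 ± 0.06.

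**Figure D3:**
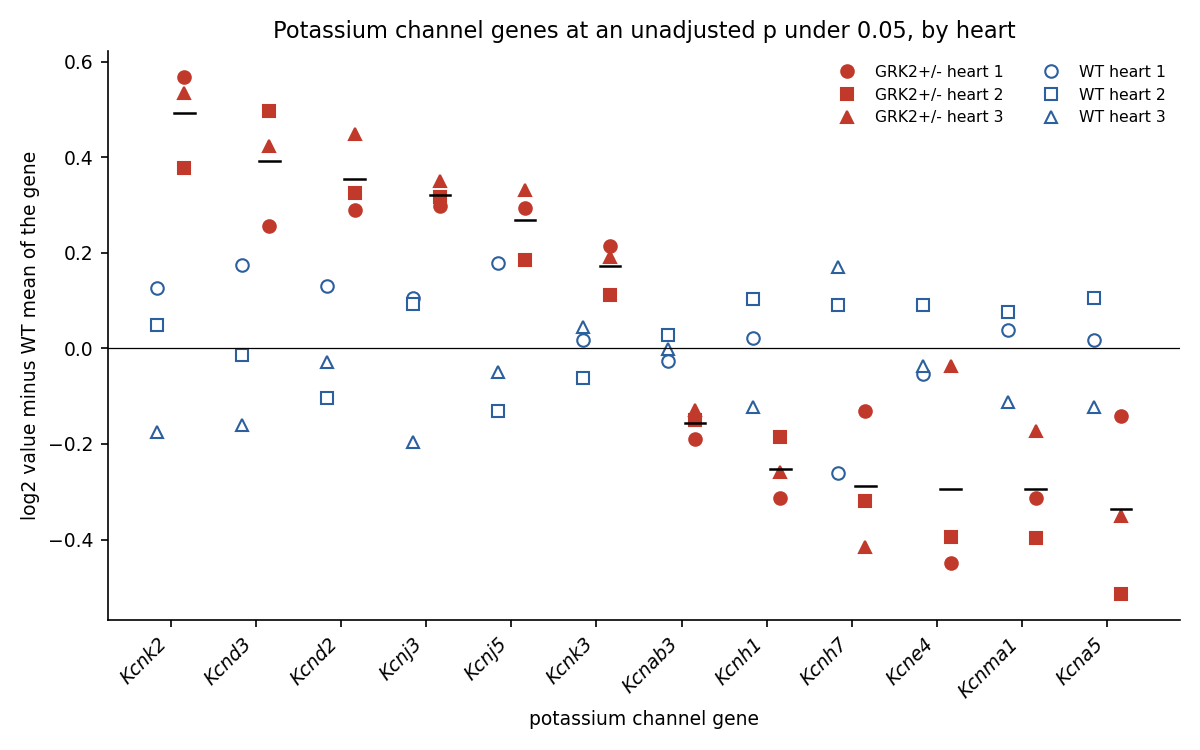
Log2 value of each heart minus the wild-type mean of the gene (vertical axis) for the 12 called genes, ordered by difference, with filled symbols for GRK2+/- hearts, open symbols for wild-type hearts and a bar at the GRK2+/- mean. The groups overlap for Kcnh7 and Kcne4 and do not overlap for the other 10.

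Upstream sequence is given for 3 of the repolarising subunits just described, the pair of Kv4 genes that were higher and the Kv1 gene that was lower, so that the start regions behind opposite differences can be read side by side. Each line gives the 250 bases before the RefSeq transcript start (GRCm38.p6), 5′ to 3′ on the strand of the gene. Capitals mark a GC box (GGGCGG) or an E-box (CANNTG).
Kcnd2, chr6:21215096-21215345, plus strand: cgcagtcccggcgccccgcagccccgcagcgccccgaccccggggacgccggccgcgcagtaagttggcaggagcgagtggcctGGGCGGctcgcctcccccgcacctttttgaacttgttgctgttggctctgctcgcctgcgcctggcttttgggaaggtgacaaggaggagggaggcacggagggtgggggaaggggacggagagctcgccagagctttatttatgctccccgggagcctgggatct
Kcnd3, chr3:105451640-105451889, plus strand: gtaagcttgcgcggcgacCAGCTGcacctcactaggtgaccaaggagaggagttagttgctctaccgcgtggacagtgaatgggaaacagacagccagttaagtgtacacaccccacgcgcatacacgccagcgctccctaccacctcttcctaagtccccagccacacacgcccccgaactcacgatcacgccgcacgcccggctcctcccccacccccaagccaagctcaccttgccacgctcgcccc
Kcna5, chr6:126535556-126535805, minus strand: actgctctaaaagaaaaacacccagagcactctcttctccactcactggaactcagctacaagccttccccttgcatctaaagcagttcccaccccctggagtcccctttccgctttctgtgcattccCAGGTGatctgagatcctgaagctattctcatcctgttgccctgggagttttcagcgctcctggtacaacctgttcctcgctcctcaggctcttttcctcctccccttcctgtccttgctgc
The GC content was 68.8% for Kcnd2, 62.8% for Kcnd3 and 53.2% for Kcna5, against a median of 58.8% over the 64 members found in the RefSeq table and 52% over 27025 genes. Kcnd2 held 1 GC box and no E-box, and Kcnd3 and Kcna5 held 1 E-box each and no GC box. Searched on both strands in windows of this length, the GC box lay in 32 of 64 members, or 50%, and in 33% of all genes, and the E-box in 68.8% and 66.1%. The cyclic AMP response element TGACGTCA lay in 0 of 64 members and in 1.6% of all genes, and the half-site TGACG, which the full element contains, in 21.9% and 17.8%. The TATA box TATAAA lay in 2 members, Kcnj13 and Kcnj9, or 3.13%, and in 13% of all genes. A match is a description of the letters and not a site of binding.

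The slow and rapid delayed rectifiers, built from Kcnq1 with Kcne1 and from Kcnh2, were not called. Kcnh2, the ERG subunit, read 9.76, 9.66 and 10.05 against 9.76, 9.69 and 9.85 and differed by 0.06 ± 0.10. Kcnq1 differed by 0.06 ± 0.09, with GRK2+/- heart 2 (9.20) below and the other two (9.47 and 9.54) above all wild-type hearts (9.30 to 9.39). The other Kv7 genes differed by -0.14 and -0.074. In the EAG, ERG and ELK subfamily, 2 dim genes that are mainly known from neurons were called lower, Kcnh1 at -0.25 ± 0.08 (limma, adjusted p = 0.232) and Kcnh7 at -0.29 ± 0.12 (limma, adjusted p = 0.324). Kcnh3, named after its values were seen, differed by 0.03 ± 0.08 in its brightest probe set, without a call. Each of its other probe sets was called lower, at -0.24 ± 0.08 without overlap and at -0.30 ± 0.13 and -0.27 ± 0.09 with overlap. Kcnh3 was also called lower when its probe sets were averaged and when the most variable one was used.

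Kcnh1 read 5.62, 5.74 and 5.67 in GRK2+/- and 5.95, 6.03 and 5.81 in wild-type hearts, without overlap, and its second probe set differed by -0.18 ± 0.11. Kcnh7 read 6.12, 5.93 and 5.83 against 5.99, 6.34 and 6.42, so wild-type heart 1 lay inside the GRK2+/- range. Its call ended when heart 2 or heart 3 of either group was left out. Markers of neurons and Schwann cells had means per heart of 6.55 to 6.63 in GRK2+/- and 6.59 to 6.68 in wild-type hearts, with 1 of 9 measured, Uchl1, called lower. The part of those cells in these differences was not tested.

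Among the KCNE subunits, single-span proteins that modify Kv channels, 4 of 5 differences lay below 0. Kcne4, which inhibits several Kv channels, was the 1 that was called. It read 7.11, 7.17 and 7.52 in GRK2+/- and 7.51, 7.65 and 7.52 in wild-type hearts. GRK2+/- heart 3 lay within the wild-type range and the other two below it, giving -0.29 ± 0.11 (limma, adjusted p = 0.279). The call ended when GRK2+/- heart 1 (-0.22), GRK2+/- heart 2 (-0.24) or wild-type heart 2 (-0.25) was left out. Kcne1, the partner of Kcnq1, differed by -0.23 ± 0.11 with overlapping groups, and Kcne2, Kcne3 and Kcne1l, all dim, differed by -0.10 ± 0.07, -0.01 ± 0.07 and 0.04 ± 0.07.

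Of 15 inward rectifier genes, the pair that forms the acetylcholine-activated channel was called higher. By the brightest probe sets none was called lower, so 13.3% of the subfamily was called, beside 14% of all genes. Kcnj3 (GIRK1) read 9.40, 9.42 and 9.46 in GRK2+/- and 9.21, 9.20 and 8.91 in wild-type hearts. The GRK2+/- hearts were close together and above all wild-type hearts, of which heart 3 was lowest, and the difference was 0.32 ± 0.09, or 1.25-fold (limma, adjusted p = 0.201). Kcnj5 (GIRK4) read 8.84, 8.73 and 8.88 against 8.73, 8.42 and 8.50, with GRK2+/- heart 2 level with wild-type heart 1 to the second decimal. Its difference was 0.27 ± 0.09, or 1.21-fold (limma, adjusted p = 0.254), and it was 0.20 without wild-type heart 2, where the call ended.

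Probe sets split for both genes. For Kcnj3, 2 of 4 pointed higher, at 0.32 ± 0.09 and 0.39 ± 0.12, and the others differed by -0.027 ± 0.081 and -0.097 ± 0.068. The probe set at -0.027 was not dim, with group means of 8.42 and 8.45. For Kcnj5 the second probe set differed by -0.052 ± 0.099. Averaged over its probe sets, Kcnj3 was 0.15 and Kcnj5 0.11, and neither was called.

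These subunits are most abundant in atrium and nodal tissue. The atrial light chain Myl7 and sarcolipin (Sln), defining atrial markers, were dim in both groups (5.61 and 5.50, 5.71 and 5.65 in GRK2+/- and wild-type hearts). Other genes of the list were bright, among them Nppa (9.97 and 11.17), Stard10 (9.40 and 9.43) and Tbx5 (8.98 and 9.02). The mean over 10 atrial markers was 7.24 to 7.31 in GRK2+/- and 7.35 to 7.43 in wild-type hearts, with 5 of 10 above 0, a median difference of -0.011 and 2 called lower, Nppa (-1.20 ± 0.27) and Bmp10 (-0.19 ± 0.08). Over 9 measured markers of conduction tissue it was 6.46 to 6.48 and 6.40 to 6.45, with 0 of 9 called. The part of tissue make-up in the differences of Kcnj3, Kcnj5 and Kcna5 was not tested. In such bulk samples fewer cells of a type and less RNA per cell cannot be told apart.

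The subunits of the strong inward rectifier and of the ATP-sensitive channel were not called. Kcnj2 and Kcnj12, which carry the resting potassium conductance, differed by 0.08 ± 0.10 and -0.12 ± 0.09, and the probe set of Kcnj2 was dim (4.96 ± 0.07 and 4.88 ± 0.21, SD, n = 3 each). Kcnj11, the pore of the ATP-sensitive channel of cardiomyocytes, differed by -0.04 ± 0.07, and by 0.12 with its most variable probe set. Kcnj8, the pore of that channel in vascular muscle and pericytes, read 9.86, 9.95 and 10.10 against 9.91, 9.85 and 9.82 and differed by 0.11 ± 0.08 with overlap. Abcc9, a sulfonylurea receptor that regulates ATP-sensitive channels, was called higher at 0.23 ± 0.08 (12.64, 12.64 and 12.51 against 12.37, 12.45 and 12.27), and Abcc8 differed by 0.01 ± 0.06. The other 9 inward rectifier genes, of brain, kidney and epithelia in the main, differed by -0.20 to 0.09 without a call. Among them Kcnj1 and Kcnj16 were named after their values were seen. The second probe set of each was called lower without overlap, at -0.33 ± 0.10 and -0.20 ± 0.07. The brightest one of Kcnj1 pointed the other way, at 0.09 ± 0.10. Both genes were called lower with the most variable probe set, and Kcnj16 also after averaging.

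The leak channels of the two-pore-domain family held the member with the smallest p. Of the 12 genes of that family 2 were called, both higher, or 16.7%, beside 14% of all genes. Kcnk2 (TREK-1), a leak channel that opens with membrane stretch, read 6.79, 6.60 and 6.76 in the GRK2+/- hearts and 6.35, 6.27 and 6.05 in the wild-type hearts. The groups did not overlap, and the difference was 0.49 ± 0.09, or 1.41-fold (limma, adjusted p = 0.103). It stayed between 0.41 and 0.56 with 1 heart left out, and the call held each time. Its 1 probe set was among the dimmer members, and no detection call came with the values.

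Kcnk3 (TASK-1), an acid-sensitive leak channel, was called higher by a smaller step. It read 10.86, 10.76 and 10.84 in GRK2+/- and 10.67, 10.59 and 10.69 in wild-type hearts. The difference was 0.17 ± 0.07, or 1.13-fold (limma, adjusted p = 0.315), and the groups did not overlap. Its probe sets contradicted each other. One of the others differed by 0.12 ± 0.10, and the last was called lower at -0.26 ± 0.10, again without overlap. Without GRK2+/- heart 1 or 3, or without wild-type heart 2, the call of Kcnk3 ended. Averaged over its probe sets, Kcnk3 was 0.012 and was not called. Kcnk1 and Kcnk6, related leak channels, differed by -0.14 ± 0.08 and -0.07 ± 0.07, and the other 8 genes of the family by -0.19 to 0.18 without a call.

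Of 8 calcium- and sodium-activated channel genes, 1 was called, or 12.5%, beside 14% of all genes. Kcnma1, the pore of the large-conductance channel of smooth muscle and mitochondria, read 7.13, 7.05 and 7.27 in GRK2+/- and 7.48, 7.52 and 7.33 in wild-type hearts. All GRK2+/- hearts lay below the wild-type hearts, with a difference of -0.30 ± 0.08, a level 1.23-fold lower (limma, adjusted p = 0.205). Its other 4 probe sets were at the bottom of the scale (group means from 3.67 to 4.47) and differed by -0.17 to 0.05, and the mean of all 5 gave -0.11 without a call. Kcnmb1, its partner in smooth muscle, differed by 0.08 ± 0.09. Of 12 smooth muscle and pericyte markers, 8 lay above 0 and 4 below, 5 were called higher, led by Myh11 (0.47 ± 0.09), and 0 were called lower. Abcc9, already given above, is 1 of those 5. The mean over the 12 markers was 9.76 to 9.85 in GRK2+/- and 9.63 to 9.71 in wild-type hearts. The part of those cells in these differences was not tested. The small-conductance channels Kcnn1, Kcnn2 and Kcnn3 differed by 0.09 ± 0.06, -0.04 ± 0.08 and -0.02 ± 0.08 without a call, and Kcnn1 gave -0.061 when its most variable probe set was used.

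No gene was called among the electrically silent subunits, the Kv3 genes, the BK beta subunits or the non-coding transcripts. The 9 electrically silent subunits, which alter other Kv channels, ran from -0.13 to 0.08, and the 3 Kv3 genes from -0.15 to -0.01. For the Kv3 gene Kcnc1, named after its values were seen, all 4 probe sets lay below 0, and 2 of the dimmer ones were called lower without overlap, at -0.39 ± 0.08 and -0.18 ± 0.07. Kcnc1 was also called lower when its probe sets were averaged and when the most variable one was used. Among the silent subunits Kcnv2 differed by 0.08 ± 0.09. The 3 BK beta subunits ran from -0.11 to 0.08. The 3 non-coding transcripts, Kcnq1ot1 and the Kcnmb4 antisense transcripts Kcnmb4os1 and Kcnmb4os2, ran from -0.14 to 0.06.

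**Figure D4:**
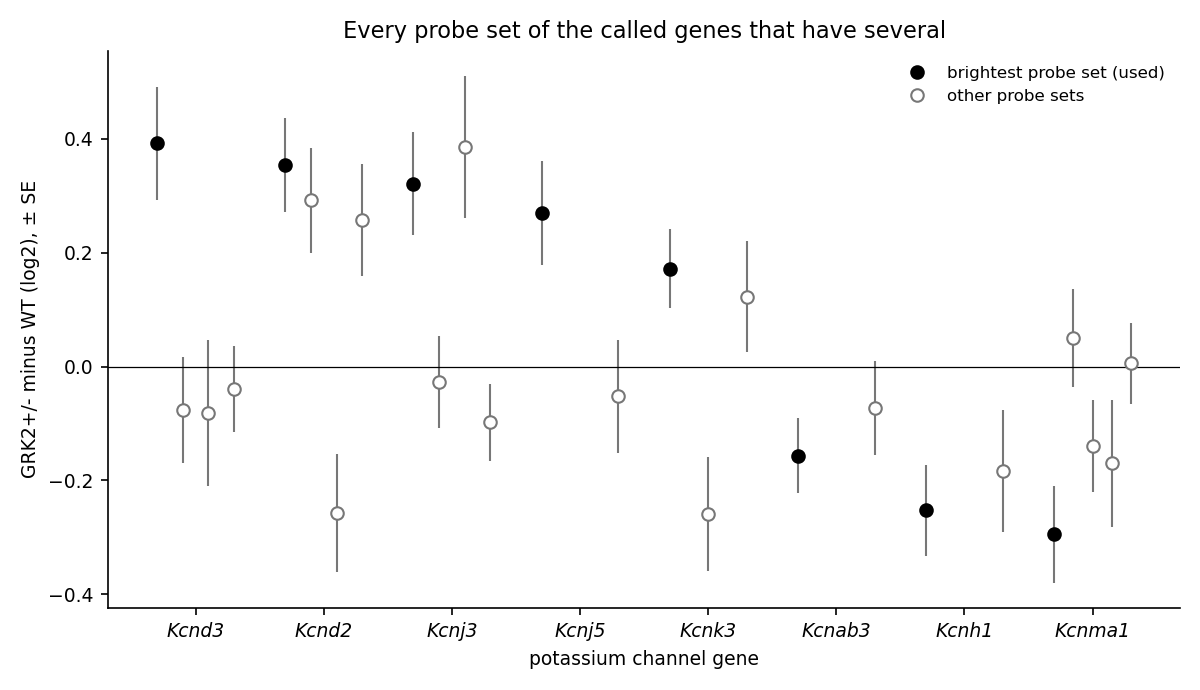
GRK2+/- minus wild-type difference (log2, vertical axis) with its standard error for every probe set of the 8 called genes that have several. Filled points are the brightest probe sets, which stand for the genes, and open points are the others, which lie on the opposite side of 0 for at least 1 probe set of Kcnd3, Kcnd2, Kcnj3, Kcnj5, Kcnk3 and Kcnma1.

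Over the whole family, agreement between probe sets was partial. Of 46 members with several probe sets, all pointed one way for 22 and not for 24, and 38 members had a single probe set. Fitted over all 45037 probe sets, 29 of the 167 were called, 10 higher and 19 lower, or 17.4% against 12.8% of all probe sets (5.44% higher and 7.4% lower), and 0 had an adjusted p under 0.05. The choice of the brightest probe set thus bears on the direction: after averaging within genes 2 members were called higher and 8 lower, in place of 6 and 6. Over all genes the same averaging called 4.82% higher and 8.34% lower, in place of 6.3% and 7.7%. The shift in the beta-actin measure given above stands beside this disagreement, and its part was not tested. The 6 genes called higher had a median genomic span of 191 kb in the GRCm38.p6 table and the 6 called lower of 164 kb, against 32.4 kb over the family and 20.3 kb over all genes. After a trend on span was taken out of each array, 11 of the 12 calls remained and Kcnab3 was lost.

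**Figure D5:**
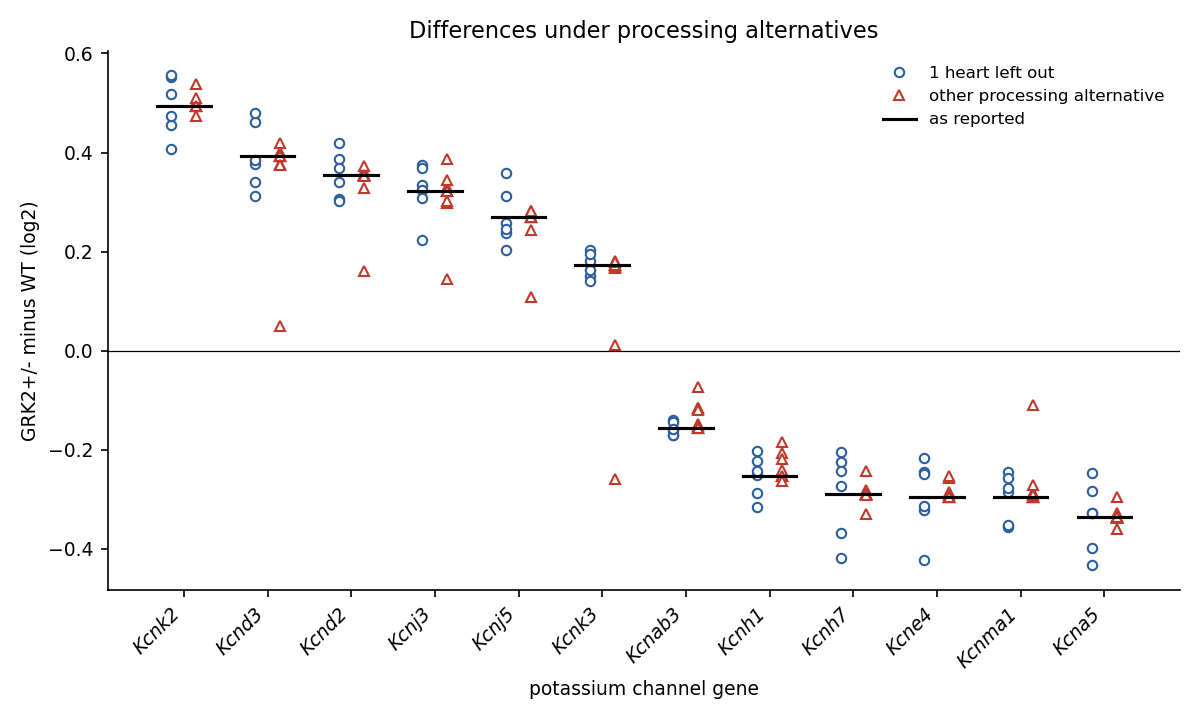
GRK2+/- minus wild-type difference (log2, vertical axis) of the 12 called genes as reported (bar), with 1 heart left out (circles) and under the other processing alternatives (triangles). Kcnk3 crosses 0 when its most variable probe set is used (-0.26), and the other 11 genes keep their sign.

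Of 34 genes that regulate or anchor these channels, 29 were measured and 25 were not called. Of the 29, 2 were called higher and 2 lower, beside 6.3% and 7.7% of all genes. Beside Abcc9, Rgs4, which speeds the closing of G protein-gated rectifiers, was called higher at 0.30 ± 0.11 (8.52, 8.55 and 8.97 against 8.33, 8.39 and 8.43). Its GRK2+/- heart 3 stood above the other two. Called lower were Gnao1, a G protein alpha subunit (-0.17 ± 0.07), and Lrrc52, an auxiliary subunit of large-conductance channels (-0.38 ± 0.15). Akap9, the anchor of the slow delayed rectifier, differed by 0.18 ± 0.08, the Kv4 accessory subunit Dpp6 by -0.07 ± 0.07, and Irx3 and Irx5, transcription factors that pattern the transient outward current across the wall, by -0.04 ± 0.07 and -0.01 ± 0.10. The median over the list was 0.0091.

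Other cell types that the excised piece can hold moved with genotype in part. The cardiomyocyte marker mean was 14.24 to 14.30 in GRK2+/- and 14.22 to 14.27 in wild-type hearts, with Ryr2 called higher (1 of 10). Epicardial markers had 3 of 7 called higher and means of 6.18 to 6.23 against 5.95 to 6.04. Endothelial markers had 3 higher and 1 lower of 10 (means of 9.13 to 9.27 against 8.97 to 9.13). Leukocyte markers had 2 higher of 9 (8.10 to 8.23 against 8.01 to 8.17). Fibroblast markers had 1 higher of 10 (10.43 to 10.57 against 10.35 to 10.52), and ventricular markers 1 higher and 1 lower of 7. The ranges of the cardiomyocyte, leukocyte, fibroblast and ventricular means overlapped between groups. Markers of skeletal muscle (7 measured) and adipocytes (6 measured) gave no call. What part these lists have in the channel differences was not tested.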

How the data were processed

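The deposited values are log2 expression per probe set, made by the authors with RMA and limma per the submitters' processing notes; the versions, and whether all arrays were processed as 1 set, are not stated in those notes. RMA subtracts background and gives arrays that are processed as 1 set a common distribution. Dim probe sets can understate differences. Of 45101 probe sets, 64 controls were left out. Names came from the platform annotation, updated through Entrez identifiers to RefSeq (GRCm38.p6): 34945 probe sets had 1 symbol, 932 had several and 9160 were not listed.

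GRK2+/- was compared with wild type by limma 3.58.1 in R 4.3.3 (lmFit and eBayes, two-sided) over all genes, with Benjamini-Hochberg adjustment and a threshold of 0.05. An exact permutation test of 3 against 3 hearts cannot give a two-sided p below 0.1. Steps were tested on simulated data. Members and lists were chosen with earlier results of these data known. Values are given for a set list of heart channel genes, for every member called at an unadjusted p, and for the 3 largest and 3 smallest differences. A few other members are named where the text says that their values had been seen. Alternatives changed scaling, level filter, probe set choice, prior, array weights, replicate block, gene span and left out each heart. Deviations of same-numbered hearts correlated at -0.18 to 0.016 and those of differently numbered hearts at -0.16 to 0.16. With 3 hearts per group these values cannot settle whether the numbers pair the hearts, and the main comparison left the numbers out.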

Additional observations from a re-analysis of the deposited data

How the results depend on the processing

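Under each of 17 alternatives, 0 potassium channel genes passed the adjusted threshold, and the count at an unadjusted p under 0.05, 12 as reported, lay between 8 and 15. It was 10 to 14 with 1 heart left out. The median difference over the family (-0.026 as reported) was 0.027 in genes at or above the median level and -0.060 when the most variable probe set stood for the gene, and ranged from -0.063 to -0.023 with 1 heart left out. Leaving out GRK2+/- heart 1 gave -0.056, and leaving out wild-type heart 1 gave -0.063. Called probe sets (29 as reported) numbered 16 at or above the median level, where fewer are tested, and 19 to 36 with 1 heart left out, the lowest without wild-type heart 3. With the replicate block 11 genes were called, 10 of them shared with the reported 12, the median difference remained -0.026 and 27 probe sets were called. The value of Kcnk3 was -0.26 from its most variable probe set, and the cause was not tested. Of 200 results for the 12 called genes under the alternatives, 169 kept direction and call, 30 kept direction only and 1 reversed. Kcna5, Kcnd2 and Kcnk2 kept their calls in every alternative in which they were tested, Kcnk2 being too dim for the filter at the median level. The values carry no detection calls, so how far the 61 dimmer members stand above background was not measured.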
